A study of Homo sapiens with 12 samples.

Results

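The mitochondrial protein import genes were compared between 2 groups of cisplatin-treated ovarian cancer cells. They were taken by name, as every gene of the deposited table whose symbol begins with TIMM, TOMM or CHCHD and a number, or with MICOS, plus TIMMDC1. This gave 34 of 14029 genes: 15 TIMM genes, 10 TOMM genes, 8 CHCHD genes and MICOS13 alone of the MICOS names, with TIMMDC1 counted among the TIMM genes. TIMM10B and MICOS10 are not analysed here. The cells were ES-2, a human ovarian cancer line, carrying either a control vector (labelled PLKO, genotype WT) or an shRNA against SRMS, a non-receptor tyrosine kinase. All cells compared here had been given cisplatin, a platinum drug that crosslinks DNA, at 15 µM for 8 hours, and each group had 3 libraries. The series also has PBS-treated samples of both constructs, which are not analysed here, so nothing below measures a response to cisplatin. Only ES-2 was used, and the labels name neither clones nor separate cultures, so the p-values measure the spread between these libraries, which may be technical. The deposited signal is reads scaled as for CPM (counts per unit of library size), but not by library size alone. It summed to 972634, 989428 and 990804 with the vector and 1021956, 1046747 and 1041573 with SRMS shRNA. These sums differ between the groups, and the main test kept this scaling. Recovered reads per library were 29072793, 45323697 and 56855428 with the vector and 28009232, 38072051 and 32577706 with the label SRMS shRNA.

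Most mitochondrial proteins are made in the cytosol and must be carried into the organelle. The TOM complex of the outer membrane is the common entrance. From there the TIM23 complex takes proteins with a cleavable presequence into the matrix, the small TIM chaperones and the TIM22 complex deliver carrier proteins to the inner membrane, and CHCHD4 traps small cysteine-rich proteins in the intermembrane space by oxidising them. The MICOS complex, to which several CHCHD proteins belong, shapes the inner membrane folds called cristae.

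The label of the knockdown was not borne out by its own target. SRMS (ENSG00000125508, chromosome 20, 63540810 to 63547504, minus strand, GRCh38) was counted in 2, 14 and 47 reads in the vector libraries and in 9, 39 and 27 reads in the SRMS shRNA libraries. On the log2 scale it was higher by 0.52 (SE 0.303, 95% interval -0.15 to 1.19; limma adjusted p = 0.168). Blocked by replicate number it passed, toward more SRMS (limma adjusted p = 0.00782), but not with the length and GC trend also removed (0.23, limma adjusted p = 0.213). Nor did it pass with median or quantile scaling (limma adjusted p = 0.0785 and 0.367). Without vector replicate 3 or SRMS shRNA replicate 1, the log2 fold change was 0.84 or 0.79 (limma adjusted p = 0.0281 and 0.0245). Directions below therefore belong to the libraries labelled SRMS shRNA, as labelled. Among other facts of the libraries, the keratins KRT8, KRT18 and KRT7 were present in all 6, with a summed epithelial list of 1621 to 1699. Within it KRT8 and KRT18 were higher (0.18 and 0.21), KRT7 was lower (-0.36), WT1 was lower from 2.84 to 1.42 (-0.80), PAX8 was at 0.136 and 0.241, and EPCAM and MUC16 are not in the table. Of 6 leukocyte markers 4 are in the table and sum to 49.5 to 52.2 with the vector and 60.6 to 65.1 with SRMS shRNA, mostly CD68 (0.23), with CD14 higher from 0.879 to 3.24 (1.45), LYZ higher from 0.136 to 0.419 (0.54) and PTPRC and CD3E not in the table. Once trends on length and GC content were taken out of the paired differences, KRT8, KRT18 and CD68 lost their calls. The endothelial list (3 of 5 in the table, mostly CDH5) sums to 14.8 to 16.8 and 5.88 to 8.36. The fibroblast list (4 of 6, nearly all COL1A1, with COL1A2 at a mean of 0.147 and 0.0671 and COL3A1 at 0.0364 and 0) sums to 1237 to 1240 and 814 to 821. The part of these markers in the results below was not tested, and in bulk RNA a change in cells and a change in RNA per cell cannot be told apart.

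More import genes were higher than lower in the libraries labelled SRMS shRNA. Of the 34 genes, 19 were higher and 3 lower by limma at an adjusted p of 0.05, and 12 passed in neither direction. Over all genes tested, 26.6% were called higher and 30.2% lower, together 56.8%. The median log2 fold change of the import genes was 0.18, against 0.0031 for all genes, and 29 of the 34 had a positive value. Values ran from -0.50 for TIMM23B to 0.73 for CHCHD6. The changes were small: the median size was 0.19 on the log2 scale, and 5 of the 22 called genes had a size of at least 0.5. In 17 genes every SRMS shRNA library lay above every vector library and in 3 every one lay below, where 29.7% and 32.9% of all genes were separated in those directions. The share of all signal taken by the 34 genes was 0.283%, 0.277% and 0.279% in the vector libraries and 0.306%, 0.310% and 0.310% in the SRMS shRNA libraries, which do not overlap.

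These counts moved with the processing. With the libraries aligned on their median (median-aligned below), which shifts every gene by 0.16, 27 import genes were higher and 1 lower, against 44.6% and 17.9% of all genes. After pairing the libraries by replicate number and removing the trend of the differences on transcript length and GC content (corrected below), 12 were higher and 7 lower, against 28.7% and 32.6% of all genes, and the median log2 fold change was 0.028. Pairing alone gave 22 higher and 3 lower, against 31% and 34.3% of all genes, and length was not corrected apart from GC content. Of the 19 genes called higher, 9 kept that call under all 18 other settings, each library left out in turn among them (CHCHD1, CHCHD6, CHCHD7, TIMM8B, TIMM17B, TIMMDC1, TOMM5, TOMM6 and TOMM7). Of the 3 called lower, TIMM23B alone did so.

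**Figure D1:**
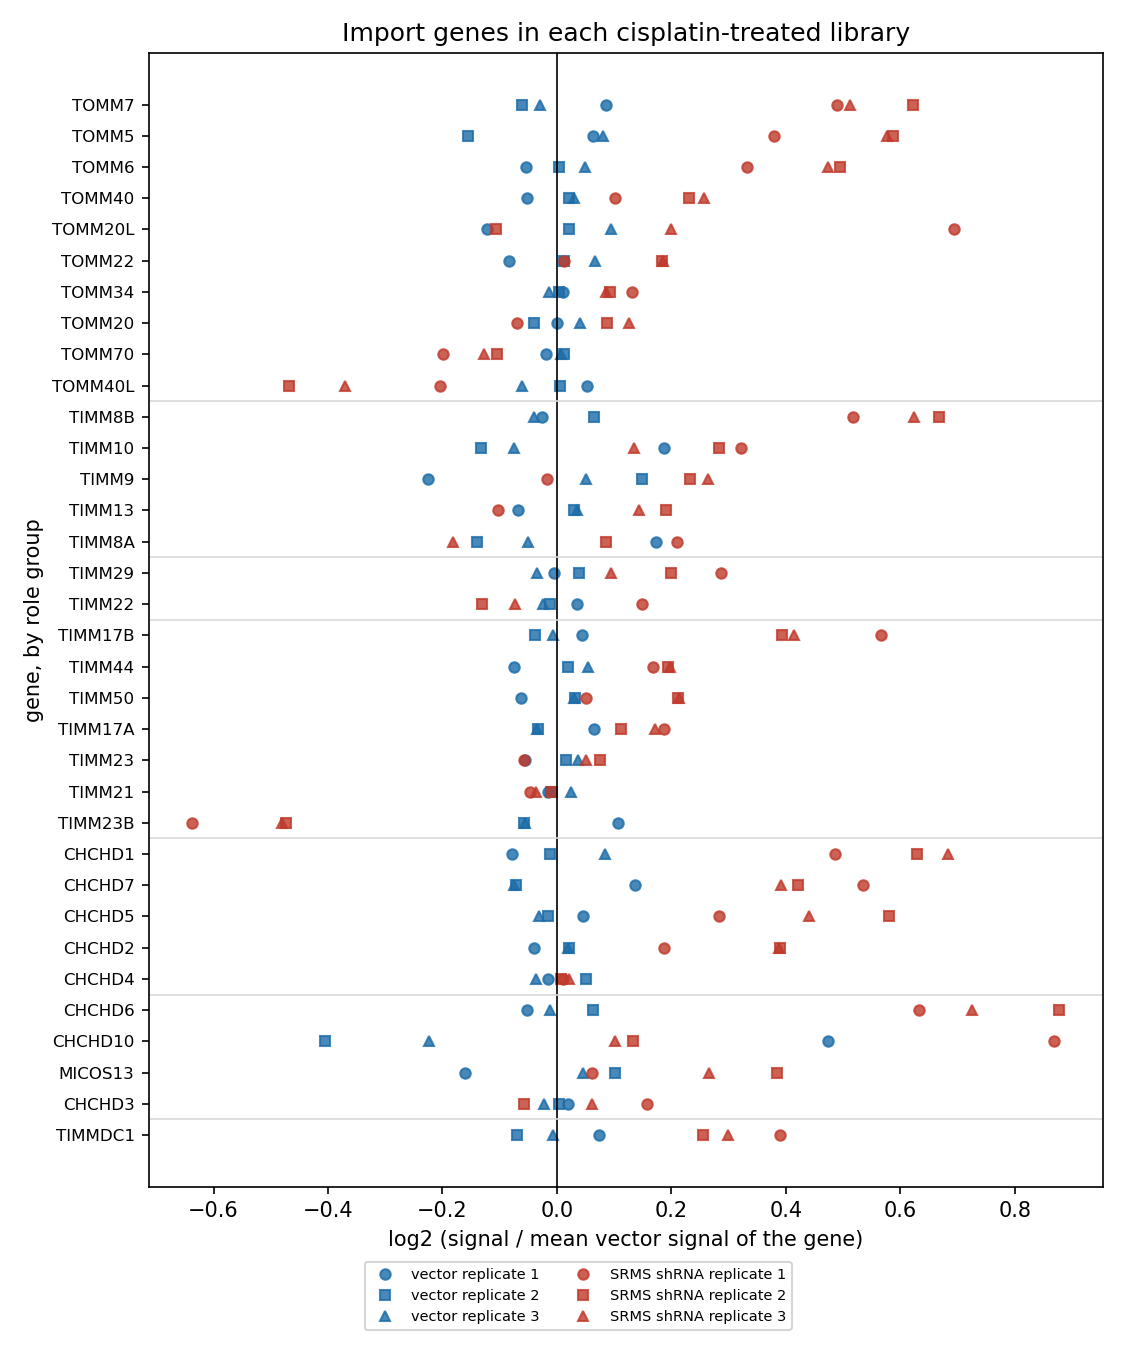
Each import gene's deposited signal in each of the 6 libraries, as the log2 ratio to that gene's mean over the vector libraries, by role group from the TOM complex at the top to TIMMDC1 at the bottom. Blue symbols are vector libraries and red are SRMS shRNA libraries, with circles, squares and triangles for replicates 1, 2 and 3: the red symbols of TOMM7, TIMM8B, CHCHD1 and CHCHD6 lie to the right of all blue ones, those of TIMM23B to the left, and both circles of CHCHD10 lie far right of the other symbols of their colour.

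The 300-base window around the gene start (250 bases before it and 50 after, RefSeq, GRCh38.p14) was available for 31 of the 34 genes, and not for TOMM5, CHCHD7 and TIMM8B. It was searched on both strands for motifs of factors known to control nuclear genes of mitochondria. NRF1, a regulator of respiratory and import genes, was searched as GCGCANGCG. It was found in 8 of the 31 genes (25.8%, against 15.7% of 11313 tested genes with a window): CHCHD4, TIMM9, TIMM13, TIMM29, TOMM7, TOMM20, TOMM34 and TOMM40. A gene with several windows was counted if any of them held the motif. Such genes had more chances of a match. The ETS-family motif CCGGAAG, which GABP binds, was in 13 (41.9%, against 20.6%), among them CHCHD2, TOMM6, TOMM20, TOMM22, TOMM70, TIMM10, TIMM23 and TIMMDC1. The YY1 motif AAGATGGCG was in TIMM50 and TOMM40L (6.45%, against 4.29%), and the cAMP response element TGACGTCA was in 0 (against 3.67%). These are descriptions of the letters in those windows and no motif overlaps another kind in the stretches printed here.

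The 150 bases before the start of 5 genes are printed, in capitals where NRF1 or ETS letters lie. TIMM23 and its near copy TIMM23B are shown because their stretches share 141 of 156 aligned positions (90.4%), while TIMM23B was called lower and TIMM23 was not called. They lie at chr10:45972339-45972488 (plus strand) and chr10:49941903-49942052 (plus strand). In TIMM23B the capitals hold a pair of adjacent ETS matches, at -49 to -43 and -42 to -36 from the start, and TIMM23 holds 1 in that stretch, at -48 to -42. TIMM23 has a further ETS match after the start, at 10 to 16, inside the window searched but outside the stretch printed. The printed stretches alone therefore do not show more ETS matches in TIMM23B over the window.
TIMM23: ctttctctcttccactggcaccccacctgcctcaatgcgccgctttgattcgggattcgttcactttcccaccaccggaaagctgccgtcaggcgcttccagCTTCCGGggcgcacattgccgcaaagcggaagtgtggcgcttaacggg
TIMM23B: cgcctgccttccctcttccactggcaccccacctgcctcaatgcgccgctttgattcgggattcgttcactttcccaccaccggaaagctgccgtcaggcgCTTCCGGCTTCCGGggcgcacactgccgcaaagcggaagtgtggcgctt
TOMM7 (chr7:22822850-22822999, minus strand), a gene that was higher, has NRF1 letters in capitals at -124 to -116 and -13 to -5. TOMM20 (chr1:235128838-235128987, minus strand), which did not pass the test, has NRF1 letters at -101 to -93 and ETS letters at -22 to -16. CHCHD6 (chr3:126704090-126704239, plus strand), the member with the largest increase, has none of these motifs and so no capitals.
TOMM7: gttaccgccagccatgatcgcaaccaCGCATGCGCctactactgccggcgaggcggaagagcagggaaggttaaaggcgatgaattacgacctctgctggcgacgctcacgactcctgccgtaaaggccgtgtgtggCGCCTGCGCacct
TOMM20: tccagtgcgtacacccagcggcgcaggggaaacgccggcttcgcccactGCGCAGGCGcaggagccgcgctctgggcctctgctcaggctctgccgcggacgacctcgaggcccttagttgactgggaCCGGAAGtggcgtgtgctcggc
CHCHD6: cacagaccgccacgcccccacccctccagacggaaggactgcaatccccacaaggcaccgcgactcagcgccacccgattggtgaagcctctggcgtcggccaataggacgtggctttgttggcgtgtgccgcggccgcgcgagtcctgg

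In the TOM complex the small subunits TOMM5, TOMM6 and TOMM7, which stabilise the complex around its channel, were all higher. The import receptors TOMM20 and TOMM22 did not pass the test and the receptor TOMM70 was lower, but these receptor calls changed with the processing, and no difference between small subunits and receptors was tested. The small subunits have transcripts of 637 to 778 nt and these receptors of 2040 to 4409 nt. Among the 10 TOM genes, 5 passed as higher and 2 as lower, against 26.6% and 30.2% of all genes. The median log2 fold change of the 10 was 0.14. TOMM7 (ENSG00000196683, chromosome 7, 22812628 to 22822852, minus strand) had a signal of 104, 93.5 and 95.6 in the vector libraries and 137, 150 and 139 in the SRMS shRNA libraries. The groups do not overlap, and the lowest SRMS shRNA library stands above the highest vector library by more than the spread within either group. Its log2 fold change was 0.54 (SE 0.0494, limma adjusted p = 1.06e-05), and 0.28 corrected. TOMM6 (ENSG00000214736, chromosome 6, 41787662 to 41789898, plus strand) had 102, 107 and 110 with the vector and 134, 150 and 148 with SRMS shRNA, and again the groups do not overlap. Its log2 fold change was 0.43 (SE 0.0486, limma adjusted p = 4.09e-05), and 0.11 corrected (limma adjusted p = 0.000281). All of its exon bases also lie in a second annotated gene on the same strand, so reads of that gene cannot be separated from TOMM6. TOMM5 (ENSG00000175768, chromosome 9, 37582646 to 37592642, minus strand), the least abundant of these 3 small subunits, had 11.98, 10.3 and 12.1 against 14.9, 17.2 and 17.1. It changed by 0.50 on the log2 scale (SE 0.0856, limma adjusted p = 0.000631), and by 0.23 corrected.

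The channel itself, TOMM40 (ENSG00000130204, chromosome 19, 44890569 to 44903689, plus strand), had 266, 280 and 282 with the vector and 296, 324 and 330 with SRMS shRNA. Every SRMS shRNA library was higher, but by less than in the small subunits: the log2 fold change was 0.20 (SE 0.0449, limma adjusted p = 0.00368) and the corrected value was -0.04 (limma adjusted p = 0.0659). Its paralog TOMM40L (ENSG00000158882, chromosome 1, 161225939 to 161230744, plus strand) moved the other way, from 10.3, 10.0 and 9.55 to 8.65, 7.20 and 7.71. The groups do not overlap, and the log2 fold change was -0.33 (SE 0.0857, limma adjusted p = 0.00785). Median-aligned, it was -0.17 (limma adjusted p = 0.101), and with quantile scaling -0.19 (limma adjusted p = 0.0729). Corrected, it was -0.38 (limma adjusted p = 0.000216).

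TOMM70 (ENSG00000154174, chromosome 3, 100363431 to 100401398, minus strand), the receptor for carrier proteins and their chaperones, had 125, 128 and 127 with the vector and 110, 118 and 116 with SRMS shRNA. The SRMS shRNA libraries are all lower, with a log2 fold change of -0.14 (SE 0.0371, limma adjusted p = 0.00742). That value was 0.02 median-aligned (limma adjusted p = 0.726), so its direction depends on the scaling, and corrected it was also 0.02 (limma adjusted p = 0.591). TOMM22, the central receptor, had 73.6, 78.8 and 81.8 against 78.7, 88.6 and 88.8, where the groups overlap. It changed by 0.13 on the log2 scale (limma adjusted p = 0.0776), and passed with the replicate block (limma adjusted p = 0.000811) and without SRMS shRNA replicate 1 (0.00417). It was 0.29 median-aligned (limma adjusted p = 0.00206), and corrected it was 0.04 (limma adjusted p = 0.189). TOMM20, the presequence receptor, had 83.0, 80.8 and 85.3 against 79.1, 88.2 and 90.6, with the lowest value of all in SRMS shRNA replicate 1. Its log2 fold change was 0.05 (95% interval -0.07 to 0.16, limma adjusted p = 0.466), and without SRMS shRNA replicate 1 it was 0.11 (limma adjusted p = 0.032). It also passed as higher median-aligned, at 0.21 (limma adjusted p = 0.00814), and corrected, at 0.14 (limma adjusted p = 0.000271). TOMM34, a cytosolic cochaperone, was higher at 0.10 (401 ± 3.66 to 431 ± 7.32, mean ± SD, n = 3; limma adjusted p = 0.0151), and with quantile scaling its value was 0.00042 and corrected -0.02 (limma adjusted p = 0.463). Without vector replicate 2 or 3 its limma adjusted p was 0.0541 or 0.0678. TOMM20L, a TOMM20 relative, was barely detected, at a mean of 0.474 and 0.583 with no more than 29 reads in any library, and its log2 fold change of 0.14 had a 95% interval of -0.16 to 0.45.

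Among the small TIM chaperones, which escort hydrophobic proteins across the intermembrane space in hexamers, TIMM8B stood apart in size. TIMM8B (ENSG00000150779, chromosome 11, 112084800 to 112086798, minus strand) had 38.2, 40.6 and 37.8 in the vector libraries and 55.7, 61.8 and 59.9 in the SRMS shRNA libraries. The groups are far apart, with a log2 fold change of 0.60 (SE 0.0518, limma adjusted p = 7.45e-06), and 0.33 corrected. On the opposite strand 30.1% of its exon bases lie in NKAPD1. TIMM10, a partner of TIMM9 in the carrier pathway, had 59.8, 47.9 and 49.9 against 65.6, 63.9 and 57.7, where vector replicate 1 lies inside the SRMS shRNA range. Its log2 fold change was 0.25 (limma adjusted p = 0.0208), and the call was lost without vector replicate 2, vector replicate 3 or SRMS shRNA replicate 2 (limma adjusted p = 0.0887, 0.0777 and 0.0711). Corrected, it was -0.08 (limma adjusted p = 0.0789). TIMM9, TIMM13 and TIMM8A did not pass, at 0.16, 0.08 and 0.04. Median-aligned, TIMM9 and TIMM13 did, at 0.32 and 0.24 (limma adjusted p = 0.0232 and 0.0187). With the replicate block TIMM9 passed (limma adjusted p = 0.0227), without SRMS shRNA replicate 1 both TIMM9 and TIMM13 did (0.0408 and 0.00686), and the corrected value of TIMM13 was -0.12 (limma adjusted p = 0.00407). So 2 of 5 small TIM genes were higher and 0 lower (median 0.16), against 26.6% and 30.2% of all genes.

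In the TIM22 complex the channel subunit TIMM22 had 32.0, 31.0 and 30.7 with the vector and 34.6, 28.5 and 29.7 with SRMS shRNA. Its groups overlap fully, at -0.02 (95% interval -0.17 to 0.14, limma adjusted p = 0.844). TIMM29, a metazoan subunit of that complex, had 21.0, 21.7 and 20.6 against 25.8, 24.2 and 22.5 and was higher at 0.19 (limma adjusted p = 0.0231). The call ended when replicate 1 or 3 of the vector, or replicate 1 or 2 of SRMS shRNA, was left out (limma adjusted p = 0.0515, 0.082, 0.0581 and 0.0619), and corrected it was -0.06 (limma adjusted p = 0.321).

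The TIM23 complex gave both directions. Its 7 genes had 4 higher and 1 lower, against 26.6% and 30.2% of all genes, and their median log2 fold change was 0.16. TIMM17B (ENSG00000126768, chromosome X, 48893447 to 48898143, minus strand), which lines the presequence translocase with TIMM23, had 33.7, 31.8 and 32.5 with the vector and 48.4, 42.9 and 43.5 with SRMS shRNA. The groups do not overlap, at a log2 fold change of 0.45 (SE 0.0556, limma adjusted p = 7.38e-05), and 0.11 corrected (limma adjusted p = 0.0247). Its paralog TIMM17A (ENSG00000134375, chromosome 1, 201955491 to 201970661, plus strand) had 140, 130 and 130 against 152, 144 and 150, also without overlap, at 0.16 (SE 0.0401, limma adjusted p = 0.00691), and 0.06 corrected (limma adjusted p = 0.029). TIMM44, which tethers the import motor to the channel, had 95.6, 102 and 105 against 113, 115 and 116, at 0.19 (limma adjusted p = 0.00281), and 0.04 corrected (limma adjusted p = 0.249). TIMM50, the receptor facing the intermembrane space, had 93.3, 99.5 and 99.4 against 101, 113 and 113, at 0.16 (limma adjusted p = 0.0215), and 0.09 corrected (limma adjusted p = 0.0055). Leaving out vector replicate 1 ended its call, as did leaving out replicate 2 or 3 of SRMS shRNA (limma adjusted p = 0.0748, 0.0869 and 0.0884). TIMM21, which links the TIM23 and TOM complexes, had 51.4, 51.6 and 52.8 against 50.2, 51.6 and 50.6, at -0.03 (limma adjusted p = 0.545), and at 0.13 median-aligned (limma adjusted p = 0.017).

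TIMM23B was lower, while TIMM23 did not pass the test. TIMM23 (ENSG00000265354, chromosome 10, 45972449 to 46003734, plus strand), the channel of the complex, had 113, 119 and 121 with the vector and 113, 124 and 122 with SRMS shRNA. These ranges overlap, and the log2 fold change was 0.02 (95% interval -0.08 to 0.12, limma adjusted p = 0.681). Median-aligned, it was 0.18 and called higher (limma adjusted p = 0.00712), and corrected it was -0.19 and called lower (limma adjusted p = 8.92e-08). TIMM23B (ENSG00000204152, chromosome 10, 49942033 to 49974850, plus strand), its near copy, had 11.7, 10.4 and 10.4 with the vector and 6.97, 7.81 and 7.77 with SRMS shRNA. All SRMS shRNA libraries are lower, at -0.50 (SE 0.0831, limma adjusted p = 0.000523), and the lower call held under all 18 other settings, from -0.34 to -0.72. The summed signal of both genes was 125, 129 and 131 with the vector and 120, 132 and 130 with SRMS shRNA, and these groups overlap. The annotated transcripts used (1 per gene) are 76.1% identical over 1256 aligned positions. Of the 100-base windows of TIMM23B, 5.27% occur in TIMM23. Other transcripts of these genes were not compared, and these values do not measure the share of reads that fit both. How the authors assigned such reads is not given in the sources used here, so each gene's level is uncertain.

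**Figure D2:**
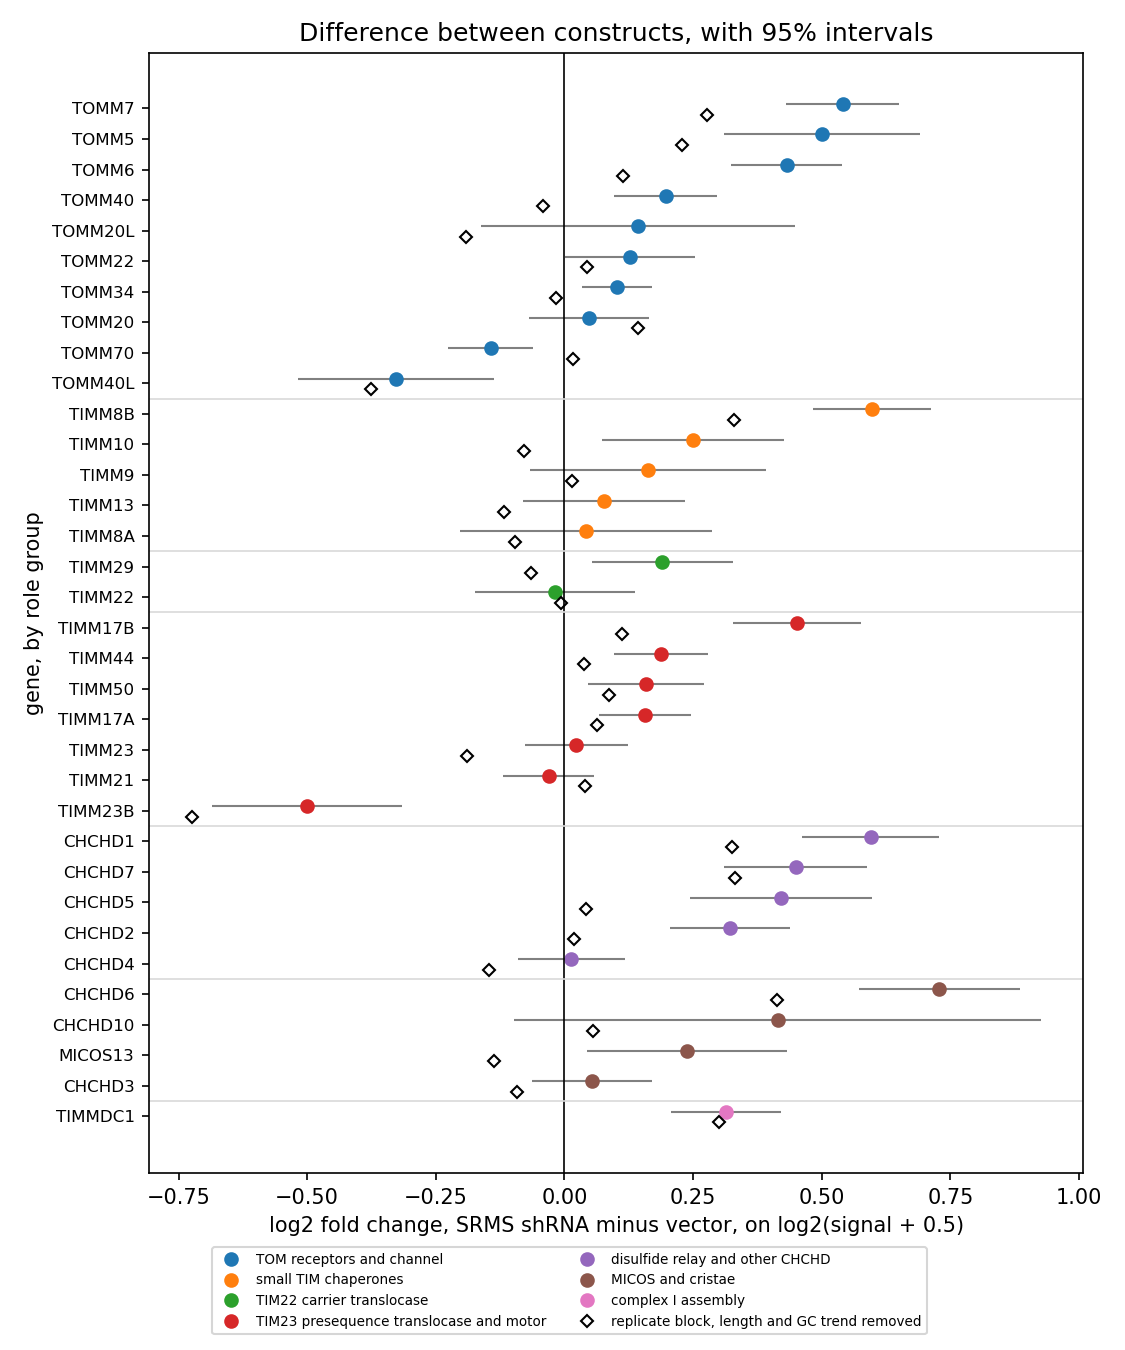
Log2 fold change (SRMS shRNA minus vector, on log2 of signal + 0.5) of each import gene with its 95% interval from limma, coloured by role group, and as open diamonds the corrected value. The intervals of TOMM7, TIMM8B, CHCHD1 and CHCHD6 lie wholly above 0 and that of TIMM23B wholly below, the interval of CHCHD10 is the widest, and most diamonds lie left of their circle.

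The CHCHD genes outside MICOS were mostly higher. CHCHD4 (ENSG00000163528, chromosome 3, 14112077 to 14124870, minus strand), the oxidoreductase of the disulfide relay, was the exception, with 32.7, 34.3 and 32.3 in the vector libraries and 33.3, 33.2 and 33.6 in the SRMS shRNA libraries. Its log2 fold change was 0.01 (95% interval -0.09 to 0.12, limma adjusted p = 0.83). It was 0.17 median-aligned (limma adjusted p = 0.00853), and corrected it was -0.15 (limma adjusted p = 0.00459). The other 4 of this group, all small twin CX9C proteins, were higher, and the median over the 5 was 0.42. Of all genes, 26.6% were called higher. CHCHD1 (ENSG00000172586, chromosome 10, 73782047 to 73783652, plus strand), a subunit of the mitochondrial ribosome, had 41.1, 43.0 and 46.0 against 60.8, 67.1 and 69.7. These groups are well separated, at 0.60 (SE 0.0601, limma adjusted p = 2.07e-05), and 0.33 corrected.

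CHCHD7 (ENSG00000170791) had 64.2, 55.6 and 55.4 with the vector and 84.7, 78.2 and 76.6 with SRMS shRNA, with no overlap and replicate 1 highest in each group. The log2 fold change was 0.45 (SE 0.0626, limma adjusted p = 0.000167). CHCHD5 had 13.2, 12.7 and 12.6 against 15.6, 19.2 and 17.4, at 0.42 (limma adjusted p = 0.00117), and its corrected value was 0.04 (limma adjusted p = 0.62). CHCHD2 (ENSG00000106153, chromosome 7, 56101569 to 56106576, minus strand), an abundant protein of the intermembrane space that also acts in the nucleus, had 361, 377 and 376 against 423, 486 and 486. All SRMS shRNA libraries are higher, at 0.32 (SE 0.0526, limma adjusted p = 0.000478), but corrected it was 0.02 (limma adjusted p = 0.431). The annotation holds 10 pseudogenes named after CHCHD2, and reads that fit both could have been split. Named pseudogenes also exist for TOMM22 (6), TOMM20, TOMM40 and CHCHD4 (4 each), and CHCHD3 and TIMM9 (3 each). The same limit holds for TIMM8B (2), TIMM17B (1) and TIMM8A (1).

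Of the 4 genes of MICOS and cristae, 2 were higher and 0 lower, against 26.6% and 30.2% of all genes. CHCHD6 (ENSG00000159685, chromosome 3, 126704220 to 126960406, plus strand), a MICOS subunit, had 15.7, 17.0 and 16.1 in the vector libraries and 25.2, 29.9 and 26.9 in the SRMS shRNA libraries. This is the largest change among the 34 genes, at 0.73 (SE 0.0704, limma adjusted p = 1.55e-05), and it was 0.41 corrected (limma adjusted p = 9.89e-08). CHCHD3, its paralog in the same complex, had 75.1, 74.2 and 72.9 against 82.6, 71.1 and 77.3. The groups overlap, at 0.05 (95% interval -0.06 to 0.17, limma adjusted p = 0.413), while it was 0.21 median-aligned (limma adjusted p = 0.00401) and corrected -0.09 (limma adjusted p = 0.0181).

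MICOS13, which joins the MICOS subcomplexes, had 28.3, 33.9 and 32.7 with the vector and 33.0, 41.3 and 38.0 with SRMS shRNA, where SRMS shRNA replicate 1 lies inside the vector range. Its log2 fold change was 0.24 (limma adjusted p = 0.0384). The call ended when replicate 1 or 3 of the vector, or replicate 2 or 3 of SRMS shRNA, was left out (limma adjusted p = 0.139, 0.0595, 0.156 and 0.103), and the corrected value was -0.14 (limma adjusted p = 0.00814). CHCHD10 (ENSG00000250479, chromosome 22, 23765834 to 23768443, minus strand), a CHCHD2 paralog tied to cristae, had 61.0, 33.1 and 37.6 with the vector and 80.1, 48.1 and 47.1 with SRMS shRNA. Replicate 1 is the highest in both groups, so the groups overlap although each same-numbered pair is higher with SRMS shRNA. The log2 fold change was 0.41 (limma adjusted p = 0.149), and it passed with the replicate block (limma adjusted p = 4.26e-09). Without vector replicate 1 it was 0.67 (limma adjusted p = 0.0153), and corrected it was 0.06 (limma adjusted p = 0.24).

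TIMMDC1 (ENSG00000113845, chromosome 3, 119498532 to 119525090, plus strand) shares the TIMM name but helps to assemble the membrane arm of respiratory complex I. It had 113, 102 and 107 with the vector and 141, 128 and 132 with SRMS shRNA. The groups do not overlap, at 0.31 (SE 0.0481, limma adjusted p = 0.000306), and corrected it was 0.30 (limma adjusted p = 1.54e-12), the value that moved least among the genes called higher. On the opposite strand 29.2% of its exon bases lie in CD80.

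Some of the levels above rest on shared annotation. Beside the overlaps already named, 20.1% of the exon bases of TOMM40L lie opposite NR1I3 and 16.0% of those of CHCHD10 opposite MMP11. For MICOS13 15.8% lie opposite HSD11B1L, for TIMM13 15.9% opposite TMPRSS9, and for TIMM9 14.9% opposite KIAA0586. TIMM9 and TOMM20L share 173 exon bases on opposite strands. On the same strand, 13.0% of the exon bases of TIMM13 lie in LMNB2. For TOMM5, 14.3% lie in another protein-coding gene on its strand and 9.33% in a further such gene. The remaining overlaps are smaller and not listed. Reads there could have been counted for either gene, so these levels are uncertain to that extent.

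Replicate 1 stood apart in both groups. It was the highest of its group in both groups for 11 of the 34 genes and the lowest in both for 14, against 24.4% and 22.2% of all genes. With replicate 1 of both groups left out, 23 import genes were higher and 3 lower, against 29.2% and 33.2% of all genes.

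Several import genes have a paralog, and the ratio within a pair does not depend on the scaling of a library. It was not corrected for transcript length or GC content (changes below are in log2 ratios of signal + 0.5). CHCHD3 exceeded CHCHD6 4.78-, 4.37- and 4.52-fold in the vector libraries and 3.28-, 2.38- and 2.87-fold in the SRMS shRNA libraries, a change of -0.68 in the log2 ratio. TIMM17A exceeded TIMM17B 4.15-, 4.10- and 4.01-fold against 3.14-, 3.36- and 3.46-fold, a change of -0.29. TIMM8A was at 0.295, 0.223 and 0.255 of TIMM8B with the vector and at 0.208, 0.172 and 0.147 with SRMS shRNA, a change of -0.56. For the copies that fell, TOMM40 exceeded TOMM40L 25.7-, 28.0- and 29.5-fold against 34.2-, 44.9- and 42.8-fold, a change of 0.52. TIMM23 exceeded TIMM23B 9.69-, 11.4- and 11.6-fold against 16.2-, 15.9- and 15.7-fold, likewise a change of 0.52. CHCHD2 exceeded CHCHD10 5.92-, 11.4- and 10.0-fold against 5.27-, 10.1- and 10.3-fold, with overlapping groups and a change of -0.09. In the other 5 pairs the groups do not overlap, and each gave p = 0.1 in a two-sided exact permutation test (adjusted p = 0.12 over 6 pairs), where 0.1 is the smallest p that 3 against 3 libraries allow; for CHCHD2 and CHCHD10 the exact p was 0.7. Levels within a pair are per gene and not per length. Transcripts were 1598 and 1006 nt (CHCHD3, CHCHD6), 1659 and 950 nt (TIMM17A, TIMM17B) and 1664 and 805 nt (TIMM8A, TIMM8B). They were 1725 and 2708 nt (TOMM40, TOMM40L) and 1222 and 1142 nt (TIMM23, TIMM23B). Corrected log2 fold changes in that order were -0.09 and 0.41, 0.06 and 0.11, and -0.10 and 0.33. For TOMM40 and TOMM40L they were -0.04 and -0.38, and for TIMM23 and TIMM23B -0.19 and -0.72. The part of length in these ratios was not tested.

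**Figure D3:**
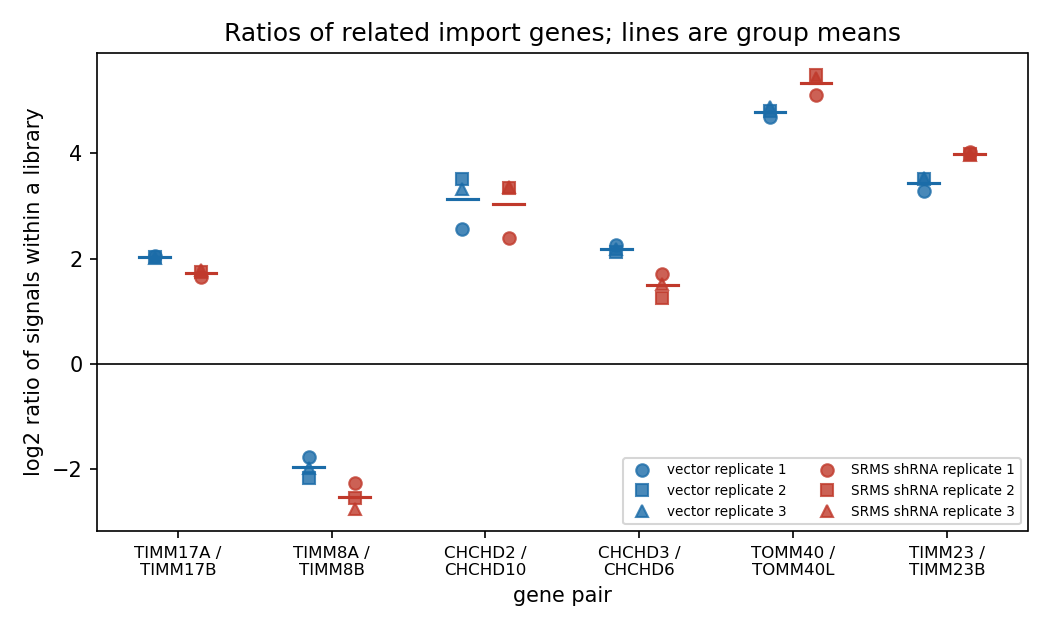
Log2 ratio of signal between 2 paralogs in each library, for the 6 pairs, with vector libraries in blue and SRMS shRNA libraries in red, symbols by replicate number and a line at each group's mean. The red symbols of TIMM23/TIMM23B and TOMM40/TOMM40L lie above all blue ones, those of CHCHD3/CHCHD6, TIMM8A/TIMM8B and TIMM17A/TIMM17B lie below, and the groups of CHCHD2/CHCHD10 overlap.

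Levels per kilobase of transcript ranked CHCHD2 first among the 34 genes, at 464 signal units per kb over the 6 libraries. TOMM34, TOMM6, TOMM40 and TOMM7 followed at 202, 196, 172 and 154 per kb. TIMM23 and TIMM17A stood at 97.1 and 85.1, the receptors TOMM22, TOMM70 and TOMM20 at 40.1, 27.3 and 24.9, and CHCHD4 at 20.7. TIMM22, at 9.73, and TIMM23B, at 8.04, were near the bottom, above TIMM8A at 6.11, TOMM40L at 3.29 and TOMM20L at 0.852. The small TOM subunits thus covered a wide range, from TOMM6 down to TOMM5 at 18.6 per kb.

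Shorter import transcripts had higher fold changes. The median transcript of the import genes was 1480 nt, against 3055 nt over all genes, while GC content was 48.8% and 49.4%. Across the 34 genes the Spearman correlation of log2 fold change with length was -0.65, and across all 14029 genes it was -0.46; these are across genes of the same libraries, which are not independent. Corrected, it was -0.11 over the 34 genes. Of the 11 import genes under 1000 nt, 10 were higher and 0 lower (median 0.43), where all 801 genes of that length had 504 higher and 16 lower (0.34). Of the 13 from 1000 to 2000 nt, 5 were higher and 1 lower (median 0.16), where 2844 genes of that length had 1292 higher and 287 lower (0.17). Of the 10 of at least 2000 nt, 4 were higher and 2 lower (0.08), where 10384 genes had 1940 higher and 3930 lower (-0.07).

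**Figure D4:**
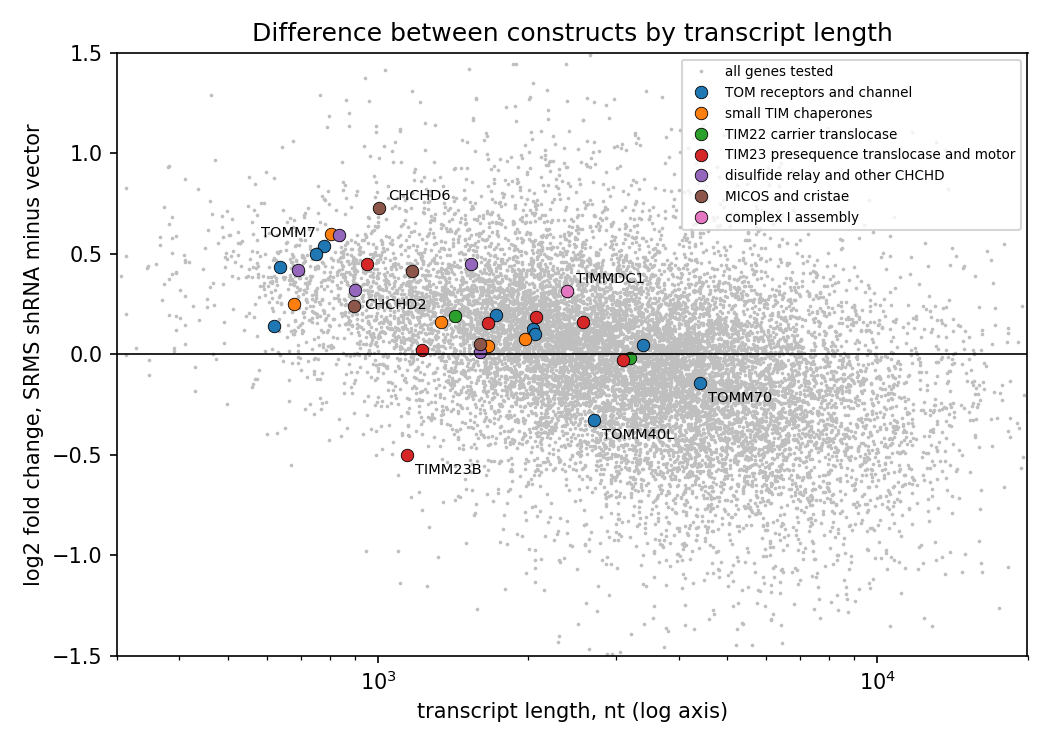
Log2 fold change (SRMS shRNA minus vector) against transcript length in nt on a log axis, with all genes tested in grey and the 34 import genes in colour. The short import genes such as TIMM8B, TOMM7, CHCHD1 and CHCHD6 lie at the upper left within the drift of the grey cloud from upper left to lower right, and 56 genes lie outside the axes.

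Other genes of the import pathway, such as motor chaperones, sorting partners and processing peptidases, were read in the same way. Of 35 such genes, 18 were higher and 5 lower (median 0.15), against 26.6% and 30.2% of all genes. Median-aligned, 29 were higher and 1 lower, against 44.6% and 17.9% of all genes. Corrected, 17 were higher and 5 lower, against 28.7% and 32.6%. MTX1, an outer membrane partner of the sorting complex, rose from 72.3 ± 0.23 to 97.1 ± 1.74 (mean ± SD, n = 3; log2 fold change 0.42, limma adjusted p = 5.91e-06; 0.13 corrected). The protease LONP1 rose from 125 to 159 (0.34, limma adjusted p = 2.37e-05), and PMPCB, a subunit of the peptidase that removes presequences, rose from 97.7 to 114 (0.22, limma adjusted p = 0.000303). CLPX, the unfoldase of the ClpXP protease, fell from 80.8 to 56.2 (-0.52, limma adjusted p = 6.88e-06; -0.34 corrected). GFER, the partner that reoxidises CHCHD4, rose (0.33, limma adjusted p = 0.00703; 0.20 corrected). Of 13 other twin CX9C genes, whose proteins CHCHD4 oxidises or is thought to oxidise, 11 were higher and 1 lower (median 0.27). Corrected, 6 were higher and 2 lower. These compare with 26.6% and 30.2% of all genes, and with 28.7% and 32.6% corrected. The median transcript of the 13 was 1013 nt. Of all genes under 1000 nt 62.9% were higher (median 0.34), and of those from 1000 to 2000 nt 45.4% (median 0.17). Among the 13, COX6B1 rose from 105 to 137 (0.39, limma adjusted p = 2.77e-05), but corrected it was 0.035 and not called (limma adjusted p = 0.279). COX19 fell from 12.1 to 9.69 (-0.31, limma adjusted p = 0.0151), and it was -0.15 median-aligned (limma adjusted p = 0.192).

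Other nuclear genes of mitochondria are given beside the import genes. The 76 mitochondrial ribosomal protein genes had 51 higher and 3 lower (67.1% and 3.95%, median 0.23). Corrected, they had 30 and 20, against 28.7% and 32.6% of all genes. The 43 SLC25 carriers, which are cargo of the small TIM and TIM22 route, had 11 higher and 13 lower (median -0.035). Corrected, 12 carriers were higher and 18 lower, against 28.7% and 32.6% of all genes. The carriers' uncorrected 25.6% and 30.2% were near the 26.6% and 30.2% of all genes. The median transcript was 1430.5 nt for the ribosomal genes and 2673 nt for the carriers, against 1480 nt for the import genes. No test of the difference between these groups and the import genes was made.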

How the data were processed

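RNA-seq was described for 12 ES-2 samples, and values were used for the 6 with cisplatin. The libraries were stranded, from poly(A) RNA, and read as paired ends, per the labels' protocols. The submitters' processing notes name FastQC, cutadapt, HISAT2, StringTie, edgeR and GRCh38, with versions and settings not given in the sources used. The deposited values carry the name log CPM in their table, yet the signal the authors deposited is linear: dividing it by the worth of 1 read gave whole counts, within 0.1, for at least 99.99% of values. The limma test was run on log2(signal + 0.5), on which fold changes of low genes are understated.

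Of 14042 rows, 13 Y copies of pseudoautosomal genes were left out. The limma 3.58.1 fit (R 4.3.3, mean-variance trend, unpaired, 3 libraries against 3) covered 14029 genes, with Benjamini-Hochberg adjustment over all and a threshold of 0.05, and was tested on simulated data. Import genes had 13 to 22780 reads in a library, and 32 of 34 had at least 200 in every library. Coordinates, lengths and GC content come from GENCODE on GRCh38, with 1 coding transcript per gene. For length and GC content, a spline with 5 degrees of freedom each was removed from each same-numbered difference. The limma fit that followed did not count this removal, so the corrected adjusted p-values may be too small. Whether counting used strand is not stated, so overlapping genes on opposite strands are reported as uncertain.

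Replicate numbers 1 to 3 occur in both groups. Across genes, deviations from the group means had r of 0.309, 0.106 and 0.120 for same-numbered libraries, all above 0.1. By that rule the numbers were used as pairs in the fits with a block, while the main fit stayed unpaired. Replicates 2 and 3 correlated crosswise at a like size (0.113 and 0.114), so these values do not show that they are paired. Deviations within a group also sum to 0, so a shared shift of replicate 1 alone can make replicates 2 and 3 correlate. The p-values of the fits with a block, the corrected ones among them, rest on this unproven pairing. Over genes of at least 5000 reads, replicates 2 and 3 differed with a chi-square per gene of 2.47 (vector) and 2.63 (SRMS shRNA), pairs that include replicate 1 with 25.3 to 44.6, and all 3 were kept. Alternatives were other scalings, pseudocounts and a filter, no trend, edgeR 4.0.16 and DESeq2 1.42.0 on the recovered reads, the block, each library left out, and replicates 2 and 3 averaged. Any import gene could be named, with library values for those of the smallest adjusted p, the highest level per length or a contrary direction in each role group. In other lists up to 4 genes of the smallest adjusted p could be named, and GFER and COX19 were chosen after their values were seen. The members and lists were chosen with earlier results of these data known.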

Additional observations from a re-analysis of the deposited data

How the results depend on the processing

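Scaling set how many genes pointed each way. With the libraries aligned on their median, calls over all genes were 6254 higher and 2510 lower, and 1 import gene was lower and the import genes' median was 0.34. The other import pathway genes then had 29 higher and 1 lower, and the twin CX9C genes 0 lower, as they also had with quantile scaling. Signs changed with median alignment for TOMM70 (0.017), TIMM22 (0.14) and TIMM21 (0.13), and with quantile scaling for TOMM20L (-0.048), TIMM22 (0.10) and TIMM21 (0.045). In both settings COX19 was the twin CX9C gene that lost its lower call.

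Of all genes, 28.7% were higher and 32.6% lower by the replicate block with the length and GC trend removed. That fit gave 12 import genes higher and 7 lower, a median of 0.028, and 6 twin CX9C genes higher and 2 lower. It turned the sign of 13 import genes: CHCHD4 -0.15, CHCHD3 -0.092, TIMM23 -0.19, TIMM10 -0.078, TOMM20L -0.19, TIMM13 -0.12, MICOS13 -0.14, TIMM29 -0.065, TOMM40 -0.042, TOMM34 -0.016, TIMM8A -0.095, TOMM70 0.016 and TIMM21 0.039. The replicate block alone turned no sign and added calls for CHCHD10, TIMM9 and TOMM22. SRMS was 0.52 with the replicate block (limma adjusted p = 0.00782), 0.51 without replicate 1 of both groups (limma adjusted p = 0.0331), and 0.23 to 0.84 with each library left out.

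The import genes' median was 0.19 with a pseudocount of 0.1, 0.19 with genes of a log2 mean under 1 left out, 0.20 with edgeR, 0.20 with DESeq2, 0.19 with replicates 2 and 3 averaged, and 0.16 to 0.19 with each library left out. With replicates 2 and 3 averaged, 13 import genes were higher and 1 lower, against 19.8% and 23.4% of all genes, and TIMM22 was 0.015. Without replicate 1 of both groups TOMM20L was -0.0035. With each library left out in turn, some values near 0 changed sign: CHCHD4 ranged from -0.0048 to 0.039, TIMM23 from -0.0039 to 0.064, TIMM22 from -0.10 to 0.037, TIMM8A from -0.040 to 0.15, and the log2 ratio of CHCHD2 to CHCHD10 from -0.37 to 0.22. Neither edgeR nor DESeq2 changed the call of any of the 34 import genes. The cause of these changes was not tested.

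Genes with few reads set the limit of depth. TOMM20L had 13 to 29 reads in a library and SRMS 2 to 47, so only large changes in them could pass. The deposited table holds only genes that passed a filter on low values that the sources used here do not describe.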
